A study of Mus musculus with 11 samples.

Results

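Mitochondrial chaperones and proteases were examined in whole-cochlea RNA of mice that lack the endoplasmic reticulum stress sensor ATF6. The 10 genes Hspd1, Hspe1, Hspa9, Lonp1, Clpp, Clpx, Trap1, Dnaja3, Htra2 and Yme1l1 were chosen by name for their role in protein folding and degradation inside mitochondria, out of 18667 genes in the expression tables. These members and the gene lists set beside them were chosen with earlier results of these data known, so counts over them are descriptive. The question was whether the higher Atf5 level of Atf6-/- cochleae comes with a mitochondrial unfolded protein response. All 10 genes passed the filter on low values, an average level across the 11 libraries of 0.1 FPKM or more, which left 16169 genes to be tested. FPKM is a fragment count normalised for transcript length and for the mapped fragments of the library, so levels can be compared between genes, while comparisons between libraries depend on the scaling, since FPKM does not fix a library's total.

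The libraries came from cochleae of 2-month-old C57BL/6J mice, 5 Atf6+/+ (titled WT) and 6 Atf6-/- (titled ATF6KO). The Atf6-/- line carries a premature stop codon in exon 4 of Atf6, and the Atf6+/+ controls were littermates of the same strain. The labels name no treatment, and according to the methods both sexes were used. The C57BL/6J strain loses high-frequency hearing with age, which both genotypes share. The paper describes the samples as individual cochleae, but neither it nor the labels say whether any came from the same animal. The unit of every test was therefore the library. Beyond the stated 30 M reads per sample, the depth is unknown, so values carry no counting error.

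The mitochondrial unfolded protein response is a transcriptional programme in which protein damage inside mitochondria raises the nuclear genes for the chaperones and proteases of that compartment. In worms the factor ATFS-1 carries the signal, and in mammals ATF5, ATF4 and CHOP (encoded by Ddit3) are its best known regulators. Mammalian ATF4 and ATF5 are also translated when the integrated stress response slows protein synthesis, whatever organelle started it, and ATF4 then raises genes of amino acid and one-carbon metabolism. The cochlea depends heavily on mitochondrial respiration in hair cells and in the stria vascularis.

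Hspd1 and Hspe1, the paired subunits of the mitochondrial chaperonin, lie head to head on mouse chromosome 1, and their common promoter is shown because these 2 genes had the largest differences between genotypes among the members. In the RefSeq promoter windows of the GRCm38.p6 build, which run from 250 bases before to 50 bases after each annotated start, the Hspe1 window and 1 of the 2 Hspd1 windows share 285 bases. The starts in these windows are 216 bases apart. The 215 bases between them, at chr1:55087933-55088147, are given on the strand of Hspe1, and the capitals mark 2 overlapping matches of the heat shock element, the binding motif of HSF1, searched on both strands as the triplets GAA, TTC and GAA with 2 free bases between neighbours.

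Hspd1/Hspe1 promoter: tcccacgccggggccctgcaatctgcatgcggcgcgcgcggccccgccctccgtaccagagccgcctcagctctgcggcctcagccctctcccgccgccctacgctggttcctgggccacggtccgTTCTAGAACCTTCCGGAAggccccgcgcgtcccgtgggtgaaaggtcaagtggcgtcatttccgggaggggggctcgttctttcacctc

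The capitals span 18 bases, from 89 to 72 bases before the Hspe1 start. The element was found in 198 of 32851 RefSeq promoter windows of this length, or 0.603%. Of the members, 8 had a promoter entry (9 windows in all), and Hspd1 and Hspe1 were the only ones of those 8 with this element. The core TGATGNAA, a composite element bound by C/EBP and ATF factors, was in 0 of the 9 windows and in 1304 of all windows (3.97%). The ER stress element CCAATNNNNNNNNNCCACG, which ATF6 binds, was in 0 of the 9 as well and in 39 of all windows (0.119%). These matches describe letters in a short window and say nothing about binding.

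The Atf6 gene itself, the check of the labels, had 9.52 ± 1.11 FPKM in Atf6+/+ (SD, n = 5) and 4.27 ± 0.285 in Atf6-/- libraries (SD, n = 6), a log2 fold change of -1.13 with an adjusted p of 5.17e-05 (limma, Benjamini-Hochberg over all genes tested). The transcript was lower in 6 of 6 Atf6-/- libraries than in any Atf6+/+ library. FPKM summed to between 474616 and 537926 per library in Atf6+/+ and between 462005 and 502419 in Atf6-/-. Atf6+/+ replicates 3 and 4 stood apart on the first principal component, which held 27.5% of the variance. They also had the highest levels of a blood cell score, the mean log2 value of neutrophil, B lineage and erythroid marker genes, which spanned 3.13 to 5.31 in Atf6+/+ libraries and 1.76 to 3.55 in Atf6-/- libraries. All 10 hair cell markers were found in the libraries, with summed levels of 41.4 to 133 FPKM in Atf6+/+ and 72.5 to 156 in Atf6-/-.

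None of the 10 members passed an adjusted p of 0.05, a threshold that 0.068% of all genes tested passed (0.0557% higher and 0.0124% lower in Atf6-/-). By a more permissive rule modelled on that of the study, an unadjusted p no higher than 0.05 and a log2 fold change beyond 0.05 in either direction, 1 of 10 members was called, Hspe1, which was lower in Atf6-/-, and 0 were called higher. The same rule called 9.85% of all genes tested, 4.48% higher and 5.37% lower, so the members' share was at the background. For 0 of the 10 members did the Atf6+/+ and Atf6-/- ranges separate, against 1.25% of all genes (0.643% higher and 0.606% lower). The median log2 fold change of the members was -0.014, beside -0.013 over all genes tested. The mean FPKM was higher in Atf6-/- for 3 members and lower for 7. In whole tissue, fewer cells of a type cannot be told apart from less RNA per cell.

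**Figure D1:**
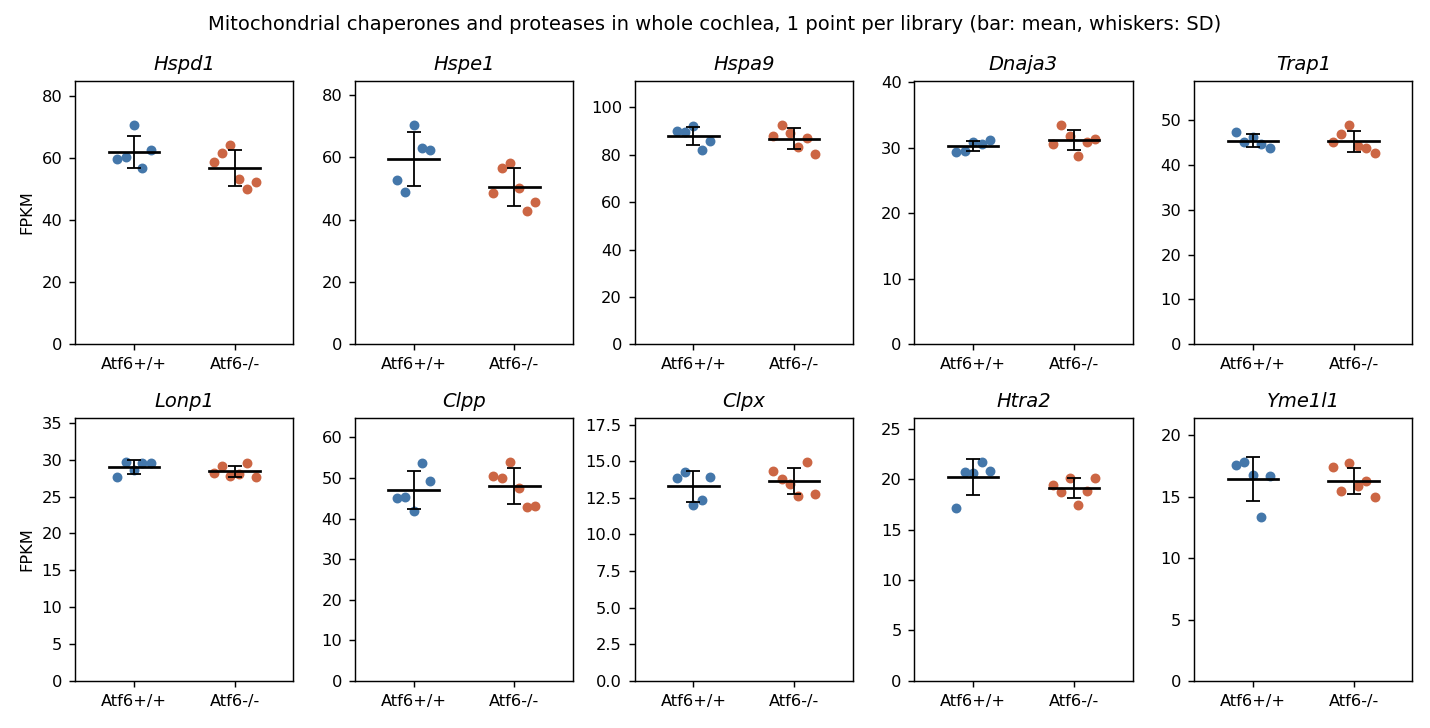
FPKM of the 10 mitochondrial chaperones and proteases (vertical axes from 0) in each library of Atf6+/+ (blue, n = 5) and Atf6-/- (orange, n = 6) cochleae; horizontal bars are means and whiskers are SD. The genotypes overlap in all 10 panels, and Hspe1 has the widest gap between means, 59.5 against 50.4 FPKM.

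Hspd1 encodes HSP60, the barrel in which imported proteins fold, and is the most used marker of the mitochondrial unfolded protein response. Its levels in Atf6+/+ replicates 1 to 5 were 59.73, 60.36, 70.81, 56.96 and 62.62 FPKM. In Atf6-/- replicates 1 to 6 they were 58.94, 61.87, 64.46, 53.22, 50.16 and 52.4 FPKM. Replicates 4, 5 and 6 of Atf6-/- lay below every Atf6+/+ library, while the other 3 lay within the Atf6+/+ range. The means were 62.1 ± 5.27 and 56.8 ± 5.75 FPKM (SD), and the log2 fold change of -0.13 had a 95% interval from -0.29 to 0.035 (adjusted p = 0.567, limma). The exact two-sided permutation test over the libraries gave p = 0.132. The interval reached up to 0.035. Without Atf6-/- replicate 3 the log2 fold change was -0.17, with an unadjusted p of 0.0416 and an adjusted p of 0.472 in limma. Without Atf6+/+ replicates 3 and 4 it was -0.11, and with the blood cell score as a covariate -0.12 (95% interval -0.34 to 0.11).

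Hspe1 encodes HSP10, the lid of the same barrel. Its levels in Atf6+/+ were 52.76, 48.9, 70.4, 62.95 and 62.34 FPKM, and in Atf6-/- 48.68, 56.64, 58.32, 50.25, 42.92 and 45.81 FPKM. Every Atf6-/- library was below the Atf6+/+ mean, and 3 of the 6 were below the lowest Atf6+/+ library, but replicates 2 and 3 of Atf6-/- were above Atf6+/+ replicates 1 and 2. The means were 59.5 ± 8.61 and 50.4 ± 6.03 FPKM (SD). The log2 fold change was -0.23 (SE 0.103, 95% interval -0.46 to -0.0096), with an unadjusted p of 0.0422 in limma, an adjusted p of 0.496 and an exact permutation p of 0.0736. The 3 highest levels were in Atf6+/+ replicates 3, 4 and 5, and without replicates 3 and 4 the log2 fold change was -0.12 (limma, unadjusted p = 0.299). With the blood cell score as a covariate it was -0.10 (limma, unadjusted p = 0.443), and after rescaling to TPM -0.18 (limma, unadjusted p = 0.0725). Hspe1 therefore did not hold its unadjusted call in any of these fits, it held it in 4 of 11 fits that each left out 1 library (Atf6+/+ replicates 1 and 2, Atf6-/- replicates 2 and 3), and the part of blood cells in its difference was not tested. With median-of-ratios scaling its log2 fold change was -0.22, and 1 member was called lower.

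**Figure D2:**
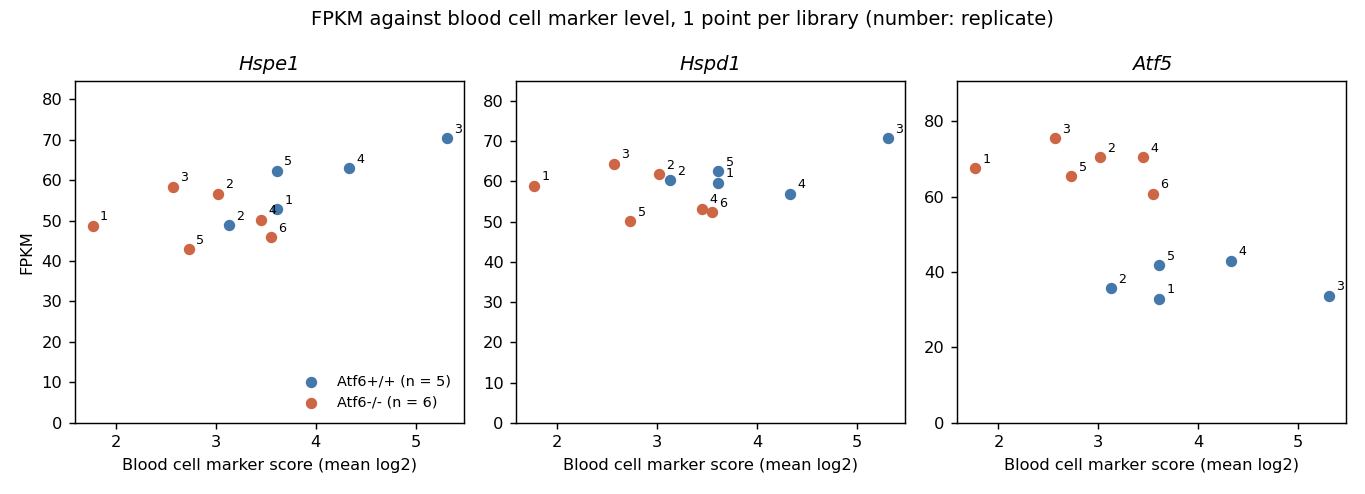
FPKM of Hspe1, Hspd1 and Atf5 (vertical axes) against the blood cell marker score of the same library (mean log2 value, horizontal axes) in Atf6+/+ (blue) and Atf6-/- (orange) cochleae; each point is a library and the number its replicate. Atf6+/+ replicate 3 has the highest score, 5.31, and the highest Hspe1 and Hspd1, while Atf5 is higher in every Atf6-/- library than in any Atf6+/+ library. The range of scores that both genotypes share, 3.13 to 3.55, holds only Atf6+/+ replicate 2 and Atf6-/- replicates 4 and 6.

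The balance of the chaperonin partners was compared within each library. The ratio of Hspd1 to Hspe1 FPKM ran from 0.905 to 1.23 over the Atf6+/+ libraries and from 1.06 to 1.21 over the Atf6-/- libraries. Its geometric mean was 1.05 and 1.13, a difference of 0.10 on the log2 scale (exact permutation p = 0.206, adjusted p = 0.280 over 4 ratios between partners). The difference moved with single libraries, and was 0.16 without Atf6+/+ replicate 2 (exact permutation p = 0.0286, not adjusted), 0.050 without Atf6+/+ replicate 4 and 0.012 without Atf6+/+ replicates 3 and 4. Both genes have many processed copies, 23 pseudogenes of Hspd1 and 7 of Hspe1 by RefSeq names, of which 0 are listed in the expression tables, so reads shared with a copy could not be followed. The annotated Hspd1 and Hspe1 spans also overlap each other on opposite strands.

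Hspa9 encodes mortalin, the mitochondrial HSP70 that pulls proteins through the inner membrane and hands them to the chaperonin. It was the most abundant member, with 89.87, 89.52, 92.35, 82.13 and 85.97 FPKM in Atf6+/+ and 87.75, 92.63, 89.27, 83.14, 87.26 and 80.28 FPKM in Atf6-/-. The highest and the lowest of all 11 libraries were both Atf6-/-, and the groups overlapped over nearly their whole range. The log2 fold change was -0.021 with a 95% interval from -0.12 to 0.082 (adjusted p = 0.901, limma). Dnaja3 encodes TID1, the J-domain partner that stimulates mortalin. It had 29.38, 29.46, 30.88, 30.49 and 31.12 FPKM in Atf6+/+ and 30.59, 33.46, 31.79, 28.72, 30.87 and 31.34 FPKM in Atf6-/-. Replicates 2, 3 and 6 of Atf6-/- were above every Atf6+/+ library and replicate 4 was below every one, for a log2 fold change of 0.039 (95% interval -0.055 to 0.13, adjusted p = 0.769, limma).

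Mortalin and its partners were compared within each library as well. The ratio of Hspa9 to Dnaja3 FPKM had a geometric mean of 2.90 in Atf6+/+ and 2.78 in Atf6-/-, which differed by -0.060 on the log2 scale (exact permutation p = 0.210, adjusted p = 0.280). The ratio of Hspa9 to Hspd1 was 1.42 and 1.53, a log2 difference of 0.11 with an exact permutation p of 0.0974 and an adjusted p of 0.280. Neither ratio passed the adjusted threshold. Leaving out 1 library at a time, the Hspa9 to Dnaja3 difference ran from -0.087 to -0.036 (without Atf6-/- replicate 6) and the Hspa9 to Hspd1 difference from 0.072 (without Atf6-/- replicate 5) to 0.14. The latter was without Atf6-/- replicate 3, with an exact permutation p of 0.0317, not adjusted.

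Trap1 encodes the mitochondrial member of the HSP90 family. Its levels were 47.26, 45.12, 46.31, 44.74 and 43.64 FPKM in Atf6+/+ and 45.12, 46.88, 48.9, 44.09, 43.74 and 42.58 FPKM in Atf6-/-. The means of 45.4 ± 1.41 and 45.2 ± 2.31 FPKM (SD) were close, and the log2 fold change of -0.0072 had a 95% interval from -0.10 to 0.088 (adjusted p = 0.968, limma).

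Lonp1 encodes the matrix protease that removes oxidised and misfolded proteins, and it is a standard readout of the mitochondrial unfolded protein response beside Hspd1. It had 27.66, 29.75, 28.55, 29.61 and 29.51 FPKM in Atf6+/+ and 28.15, 29.2, 27.78, 28.1, 29.55 and 27.71 FPKM in Atf6-/-. It was also the steadiest member, with a coefficient of variation within genotypes of 2.89%, and 0 of the 6 Atf6-/- libraries lay outside the Atf6+/+ range. The log2 fold change was -0.030, and its 95% interval from -0.11 to 0.051 allows only small differences in either direction (adjusted p = 0.803, limma).

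Clpp and Clpx encode the proteolytic chambers and the unfoldase ring of the ClpXP protease, the complex through which the response was first traced in worms. Clpp had 45.11, 45.21, 41.82, 53.77 and 49.24 FPKM in Atf6+/+ and 50.6, 50.09, 54.03, 47.63, 42.9 and 42.97 FPKM in Atf6-/-. Clpx had 13.84, 14.27, 11.98, 12.34 and 13.94 FPKM in Atf6+/+ and 14.33, 13.81, 13.41, 12.62, 14.97 and 12.77 FPKM in Atf6-/-. Both genes were highest in an Atf6-/- library and lowest in Atf6+/+ replicate 3. The log2 fold changes were 0.031 for Clpp (95% interval -0.14 to 0.20) and 0.041 for Clpx (-0.099 to 0.18), with adjusted p of 0.911 and 0.850 (limma). Without Atf6+/+ replicates 3 and 4 the log2 fold changes were 0.042 for Clpp and -0.040 for Clpx, and with the blood cell score as a covariate -0.045 and -0.092, so the direction of Clpx turned under both and that of Clpp under the second. The upper bound of Clpp was the highest of the 10 members, a 1.15-fold rise. The ratio of Clpp to Clpx FPKM was 3.52 in Atf6+/+ and 3.49 in Atf6-/- (log2 difference -0.010, exact permutation p = 0.924, adjusted p = 0.924).

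Htra2 and Yme1l1 encode proteases that face the intermembrane space, the first a soluble trypsin-like enzyme and the second an ATP-driven protease of the inner membrane. Htra2 had 17.12, 20.66, 20.62, 21.74 and 20.79 FPKM in Atf6+/+ and 19.42, 18.76, 20.08, 17.48, 18.79 and 20.16 FPKM in Atf6-/-. All 6 Atf6-/- libraries were below 4 of the 5 Atf6+/+ libraries, but Atf6+/+ replicate 1 was the lowest of all. The log2 fold change was -0.075 (95% interval -0.21 to 0.063, adjusted p = 0.694, limma). Without that library it was -0.13, with an unadjusted p of 0.0236 and an adjusted p of 0.391 in limma. Without Atf6+/+ replicates 3 and 4 it was -0.026, and with the blood cell score -0.063. Htra2 overlaps the annotated spans of Aup1 and Loxl3, Trap1 that of Dnase1 and Yme1l1 that of Mastl, so the levels of these members are less certain if the counting did not use strand. Yme1l1 had 17.55, 17.86, 16.75, 13.32 and 16.69 FPKM in Atf6+/+ and 17.4, 15.5, 17.73, 15.89, 16.29 and 15.01 FPKM in Atf6-/-. Its log2 fold change was -0.0064 (95% interval -0.17 to 0.16, adjusted p = 0.985, limma). It was -0.093 without Atf6+/+ replicates 3 and 4 and -0.11 with the blood cell score, with unadjusted p of 0.166 and 0.247 in limma.

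The members differed far more from each other than between genotypes. By mean FPKM over all 11 libraries they ranked Hspa9 (87.3), Hspd1 (59.2), Hspe1 (54.5), Clpp (47.6), Trap1 (45.3), Dnaja3 (30.7), Lonp1 (28.7), Htra2 (19.6), Yme1l1 (16.4) and Clpx (13.5). The library ranges of neighbours separated between Hspa9 and Hspd1, between Trap1 and Dnaja3 and between Lonp1 and Htra2, and the other neighbours overlapped. All 10 were well expressed, at the 61.8 to 94.3 percentile of the genes tested. Over the 10 members the upper 95% bounds of the log2 fold changes went from -0.0096 to 0.20, and the lower bounds from -0.46 to -0.055.

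Atf5, the regulator that the question starts from, was higher in Atf6-/- cochleae. Its levels were 32.95, 35.65, 33.67, 43.01 and 41.73 FPKM in Atf6+/+ and 67.46, 70.44, 75.55, 70.38, 65.41 and 60.72 FPKM in Atf6-/-. The lowest Atf6-/- library was above the highest Atf6+/+ library. The log2 fold change was 0.87 (95% interval 0.70 to 1.05, adjusted p = 0.000441, limma), an interval that lies above the upper bound of every member. Of the 15 regulators listed, Atf5 alone passed the adjusted threshold.

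Atf4, Hsf1 and Foxo3 passed only the unadjusted rule, all higher in Atf6-/-. Together with Atf5, 4 of the 15 regulators were called, against 4.48% of all genes in that direction. The rise of Atf5 in these data prompted the question, and the list was chosen with earlier results known. The count therefore describes the list and is no test of it. Atf4, the main factor of the integrated stress response, went from 123 ± 14.9 to 140 ± 12.6 FPKM (SD), with a log2 difference of 0.19 (limma, adjusted p = 0.495). Its unadjusted call held in 3 of 11 fits that each left out 1 library and was lost with the blood cell score (0.22, limma, unadjusted p = 0.0775). Without Atf6+/+ replicates 3 and 4 the log2 fold change was 0.27 (limma, unadjusted p = 0.0041). Hsf1, the heat shock factor whose motif is matched in the Hspd1/Hspe1 promoter, had 30.89, 31.11, 33.28, 33.84 and 32.59 FPKM in Atf6+/+ and 36.01, 34.68, 35.75, 37.01, 33.37 and 35.41 FPKM in Atf6-/-. In 5 of the 6 Atf6-/- libraries Hsf1 was above every Atf6+/+ library, with a log2 fold change of 0.13 (adjusted p = 0.400, limma; exact permutation p = 0.00649). Foxo3, a stress-responsive forkhead factor that SIRT3 acts on, had a log2 fold change of 0.27 (adjusted p = 0.407, limma). Its unadjusted p was 0.156 with the blood cell score and 0.0764 without Atf6+/+ replicates 3 and 4 (limma). With the score as a covariate the regulators had 2 genes called higher, Atf5 and Hsf1, and 1 called lower, Ddit3.

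Ddit3, which encodes CHOP, had 27.4 ± 3.31 FPKM in Atf6+/+ and 23.6 ± 3.19 in Atf6-/- (SD). Its log2 fold change of -0.22 had a 95% interval from -0.44 to 0.0036 and an adjusted p of 0.505 (limma). Ddit3 was called lower by the unadjusted rule in 5 of 11 fits that each left out 1 library. With the blood cell score it was -0.30 (95% interval -0.59 to -0.0043, unadjusted p = 0.0473, adjusted p = 0.906, limma). Cebpb (-0.045) and Cebpg (0.062), the C/EBP partners of these factors, and Jun (-0.056), a subunit of AP-1, had small log2 fold changes that passed neither rule. The same held for Sirt3 (0.026), a mitochondrial deacetylase, and for Nrf1 (-0.017), a factor for nuclear genes of mitochondria. Among the kinases that start the integrated stress response, the log2 fold changes were 0.021 for Eif2ak1 (HRI), 0.032 for Eif2ak2 (PKR), 0.050 for Eif2ak3 (PERK) and 0.032 for Eif2ak4 (GCN2). Dele1, which carries mitochondrial stress to HRI, had 0.047 with an unadjusted p of 0.209 in limma. RNA levels of kinases do not measure their activity.

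**Figure D3:**
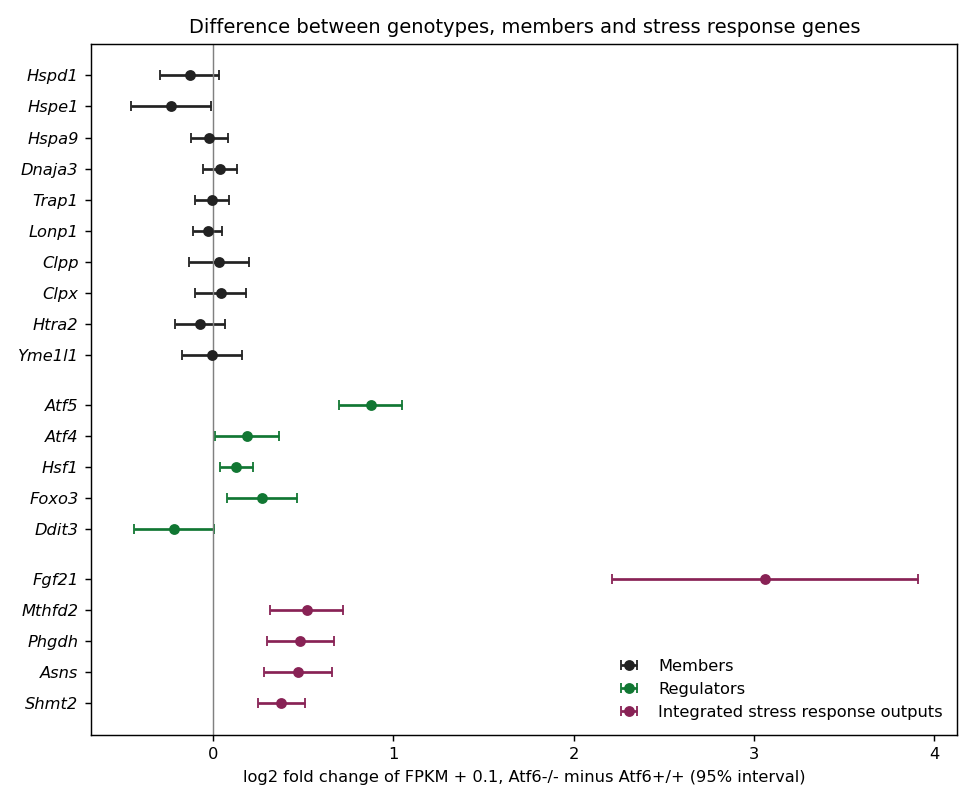
Log2 fold change of FPKM + 0.1, Atf6-/- minus Atf6+/+ (horizontal axis), with 95% intervals from limma, for the 10 members (black), the 5 regulators (green) and the 5 integrated stress response outputs (purple) with the smallest p. The intervals of 9 members include 0 and that of Hspe1 ends at -0.0096, while the interval of Atf5 starts at 0.70.

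Outputs of the integrated stress response, genes that ATF4 is known to raise, were mostly higher in Atf6-/- in the same comparison. Of 14 listed outputs, 11 were called higher and 0 lower by the unadjusted rule, 2 passed the adjusted threshold and 7 had groups that did not overlap. Over all genes the shares higher in Atf6-/- were 4.48%, 0.0557% and 0.643% by these rules. Both adjusted calls, Shmt2 and Fgf21, were lost with the blood cell score as a covariate (adjusted p of 0.215 and 0.233, limma), where the log2 fold changes were 0.43 and 2.80 and 9 of 14 outputs were called higher by the unadjusted rule. When 1 library was left out, 1 or 2 outputs passed the adjusted threshold. The median log2 fold change of the list was 0.47, beside -0.014 for the members and -0.013 for all genes. Some of these outputs are enzymes inside mitochondria. Shmt2, which makes one-carbon units in the matrix, had 16.65, 17.4, 18.71, 21.27 and 18.25 FPKM in Atf6+/+ and 23.08, 24.23, 24.5, 22.91, 25.04 and 23.86 FPKM in Atf6-/-. The groups did not overlap, and the log2 fold change was 0.38 (95% interval 0.25 to 0.51, adjusted p = 0.0482, limma). Mthfd2, the next enzyme of that path, had a log2 fold change of 0.52 (adjusted p = 0.0851, limma), with every Atf6-/- library above every Atf6+/+ library. Fgf21, a hormone secreted under mitochondrial and amino acid stress, had 1.27, 4.49, 1.08, 5.34 and 1.08 FPKM in Atf6+/+ and between 15.05 and 20.24 FPKM in Atf6-/- (a log2 difference of 3.06, adjusted p = 0.00923, limma). Phgdh and Asns, cytosolic enzymes of serine and asparagine synthesis, had log2 fold changes of 0.48 and 0.47.

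None of the other listed genes for folding and degradation in mitochondria was called higher. Of 15 further chaperones, co-chaperones and assembly factors, 0 were called higher and 1 lower, near the shares of 4.48% and 5.37% over all genes, with a median log2 fold change of -0.047. The called gene was Pam16, a subunit of the import motor that regulates mortalin, at 73.2 ± 4.99 FPKM in Atf6+/+ and 63.8 ± 8.86 in Atf6-/- (SD; log2 fold change -0.21, adjusted p = 0.491, limma). Its unadjusted call held in 4 of 11 fits that each left out 1 library and was lost under TPM scaling and without Atf6+/+ replicates 3 and 4. With the blood cell score as a covariate the call held, at a log2 fold change of -0.26 (limma, unadjusted p = 0.0498, adjusted p = 0.910). Of 17 further proteases, peptidases and their scaffolds, 0 were called higher and 1 lower, with a median of -0.036, and 3 were called lower without Atf6-/- replicate 1. After rescaling to TPM the medians of the 2 lists turned to 0.0098 and 0.021, with 9 of 15 and 10 of 17 genes above 0.

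Atp23, a metalloprotease of the intermembrane space that processes an ATP synthase subunit, was the called protease. It had 6.23, 5.66, 4.55, 5.79 and 6.39 FPKM in Atf6+/+ and 4.07, 4.53, 4.38, 3.78, 3.36 and 3.87 FPKM in Atf6-/-. The genotypes did not overlap, although Atf6+/+ replicate 3 was only just above Atf6-/- replicate 2, and after rescaling to TPM or by median of ratios they overlapped. The log2 fold change was -0.50 (95% interval -0.73 to -0.28), with an adjusted p of 0.133 in limma and an exact permutation p of 0.00216, the smallest that these group sizes allow. With the blood cell score as a covariate it was -0.64. Over the alternatives the adjusted p ran from 0.0495, without Atf6+/+ replicate 3, to 0.545 (limma).

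Import channels were called only in the lower direction. Of 21 genes, 6 were called lower and 0 higher, against 5.37% and 4.48% of all genes, with 19 of 21 log2 fold changes below 0 and a median of -0.091. Tomm7 (-0.25), Tomm20 (-0.10) and Tomm22 (-0.097), subunits of the outer membrane translocase, and Timm9 (-0.24) and Timm10b (-0.18), small chaperones of the intermembrane space, had adjusted p between 0.410 and 0.455 (limma). The count was 2 after rescaling to TPM, with 15 of 21 below 0 and a median of -0.036. It was 3 with the blood cell score as a covariate, with 15 of 21 below 0 and a median of -0.079. Of 16 genes of mitochondrial content and biogenesis 0 were called, with a median of -0.046. The count was 1 without Atf6+/+ replicate 5 or Atf6-/- replicate 3 and 2 without Atf6-/- replicate 2, and the median was 0.011 after rescaling to TPM.

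For comparison, 6 of 78 mitochondrial ribosomal proteins and 13 of 86 nuclear-encoded respiratory chain subunits were called lower, and 0 of either higher, against 5.37% and 4.48% of all genes. Their medians were -0.054 and -0.13, and the log2 fold changes of all 86 respiratory chain subunits were below 0. After rescaling to TPM the ribosomal proteins had 1 gene called lower and 1 higher, with 42 of 78 above 0 and a median of 0.0026. The respiratory chain then had 3 called lower and 75 of 86 below 0, with a median of -0.069, and its count went from 13 to 2 with the blood cell score as a covariate. That count was 1 without Atf6+/+ replicates 3 and 4, and it ran from 2 (without Atf6+/+ replicate 4) to 28 (without Atf6+/+ replicate 2) when 1 library was left out, while that of the ribosomal proteins ran from 2 to 10. The blood cell markers differed in the same comparison, with 10 of 10 neutrophil genes (6 called), 10 of 10 erythroid genes (8 called) and 9 of 10 B lineage genes (3 called) lower in Atf6-/-, as were 8 of 8 bone genes (0 called) and 4 of 4 adipocyte genes (1 called). Markers of several cochlear cell types were mostly higher, 10 of 10 for hair cells (2 called), 6 of 6 for spiral ligament fibrocytes (2 called), 7 of 8 for supporting cells (2 called) and 8 of 8 for the stria vascularis (1 called). Others were mostly lower, 8 of 8 for spiral ganglion neurons (0 called, median -0.073) and 7 of 8 for macrophages (0 called). Schwann cell markers were higher for 5 of 7 (1 called higher) and skeletal muscle markers for 5 of 9 (1 called lower). Without Atf6+/+ replicates 3 and 4, neutrophil calls went from 6 to 0 (median -1.52 to -0.56), B lineage calls from 3 to 0 (median -0.79 to -0.11) and erythroid calls from 8 to 5. Leaving out either of them alone gave 1 neutrophil and 1 B lineage call. Without both, 3 of 6 fibrocyte, 6 of 8 supporting cell, 7 of 8 stria and 8 of 8 macrophage genes were lower. Spiral ganglion neuron genes were then higher for 6 of 8. Of the hair cell genes, 7 of 10 were lower without both, and 8 of 10 with the blood cell score as a covariate, with 0 called. Neutrophil markers summed to 283 to 3533 FPKM in Atf6+/+ and 114 to 1308 in Atf6-/-, erythroid markers to 4839 to 46409 and 2875 to 9390, and B lineage markers to 31.9 to 57.5 and 30.6 to 40.6. Of these markers, 0 were at 0 in all libraries. Their part in the levels of mitochondrial genes was not tested.

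**Figure D4:**
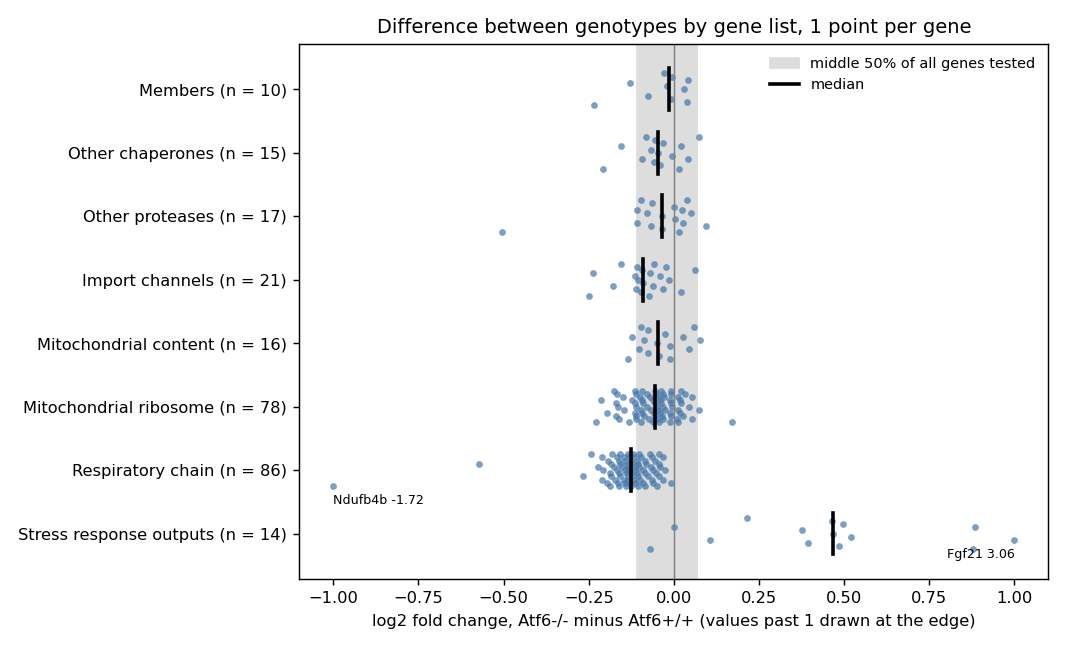
Log2 fold change, Atf6-/- minus Atf6+/+ (horizontal axis), of each gene in 8 gene lists; black bars are list medians, the grey band holds the middle 50% of all genes tested, and Fgf21 (3.06) and Ndufb4b (-1.72), past the axis, are drawn at its edges. The medians of the members (-0.014) and of the other mitochondrial lists except the respiratory chain (-0.13) lie within the grey band, and that of the integrated stress response outputs (0.47) lies above it. The band is the spread of single genes, so a median within it does not show that a list is unchanged. The import channels lie within it with 19 of 21 genes below 0.

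Rescaling between libraries moved the members together with all genes. After rescaling to TPM, 7 members were higher and 3 lower, with a median of 0.043 beside 0.041 for all genes tested, and the calls over all genes went from 724 higher and 868 lower to 1396 higher and 460 lower. With median-of-ratios scaling the members' median was -0.0021 beside -0.0016. With the blood cell score as a covariate, 9 of 10 members were lower and 0 were called, with a median of -0.054 beside -0.015. For Hspa9, Lonp1, Trap1 and Dnaja3, log2 fold changes lay between -0.042 and 0.051 in that fit and between -0.030 and 0.053 without Atf6+/+ replicates 3 and 4. Over every alternative tried, the lowest adjusted p of any member was 0.376 (limma) and the highest upper bound of a log2 fold change was 0.28.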

How the data were processed

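RNA-Seq was performed on whole cochleae, 5 Atf6+/+ and 6 Atf6-/- libraries, grouped by the genotype in the labels. The authors prepared stranded mRNA libraries, sequenced them to a stated 30 M reads per sample, aligned them to GRCm39 with HISAT2 2.0.4 and deposited FPKM with 2 decimals from RSEM, whose version differs between the methods and the submitters' processing notes (the latter give 1.2.12). Read counts were not used here, so depth per library and counting error are unknown.

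Values were analysed as log2(FPKM + 0.1) for genes averaging 0.1 FPKM or more, so fold changes of low genes are understated. The two-sided test of genotype, the only term, was by limma 3.58.1 in R 4.3.3, its trend option on, and p-values were adjusted by Benjamini-Hochberg over 16169 genes. Calls were an adjusted p under 0.05, or, modelled on the study's thresholds, with limma p-values and the fold threshold read on the log2 scale, an unadjusted p no higher than 0.05 and a log2 fold change beyond 0.05 in either direction. For single values and ratios, exact permutation tests (two-sided) went over all 462 regroupings of the libraries. Gene lists were described by counts and medians, with no set test. Text names the 10 members, Atf6, all 15 regulators and, of each other list, up to 5 genes with the smallest p among those at an unadjusted p of at most 0.05. Members and lists were chosen with earlier results of these data known. The alternatives were other pseudocounts (1, 0.01), other filters, TPM or median-of-ratios scaling, robust variance, a replicate block, the blood cell score as covariate and leaving out each library. Leaving out Atf6+/+ replicates 3 and 4 together was added after seeing the data. Same-numbered libraries did not deviate together, so replicate numbers were not used as pairs. Scripts were tested on simulated data. Promoters are RefSeq windows on GRCm38.p6, not the authors' GRCm39, and coordinates refer to GRCm38.p6 only; 8 of 10 members had an entry. Other steps used matplotlib 3.10.9, scipy 1.17.1, pandas 2.3.3 and numpy 2.4.6 under Python 3.11.15.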

Additional observations from a re-analysis of the deposited data

Results flagged for a closer look

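A library far from the others of its genotype, by the gap to its nearest neighbour relative to the range of the group, was found in 3 of 84 gene and genotype groups tested, where chance gives about 5%. Htra2 was at 17.12 FPKM in Atf6+/+ replicate 1, with the next library of that genotype at 20.62. Yme1l1 was at 13.32 FPKM in Atf6+/+ replicate 4, with the next at 16.69. Atf4 was at 149.07 FPKM in Atf6+/+ replicate 4, with the next at 120.07.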

How the results depend on the processing

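Of 210 log2 fold changes of the members under the alternatives, 185 kept their direction and 25 were reversed, all of them for Clpp, Clpx, Hspa9, Lonp1, Trap1 and Yme1l1, and the values ran from -0.30 to 0.098. Hspd1, Hspe1, Htra2 and Dnaja3 kept their direction throughout. Rescaling to TPM reversed Hspa9 (0.036), Lonp1 (0.027), Trap1 (0.050) and Yme1l1 (0.050), and median-of-ratios scaling reversed Trap1 (0.0048) and Yme1l1 (0.0055). The blood cell score as a covariate reversed Clpp (-0.045) and Clpx (-0.092). Without Atf6+/+ replicates 3 and 4 together, Clpx was -0.040 and the log2 difference of the Clpp to Clpx ratio was 0.082. Leaving out 1 library at a time gave log2 fold changes from -0.010 to 0.080 for Clpp, from -0.045 to 0.0010 for Hspa9, from -0.030 to 0.0098 for Trap1 and from -0.080 to 0.025 for Yme1l1, and a Clpp to Clpx difference from -0.050 to 0.064.

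The count of members at the unadjusted rule went from 1 to 0 under TPM, the blood cell score and without Atf6+/+ replicates 3 and 4, and ran from 0 to 2 without 1 library. Over all genes that rule gave 886 with the blood cell score and 1001 without those replicates (1197 to 1865 without 1 library), and the adjusted count of 11 was 6 with the blood cell score (8 to 13 without 1 library). Import channels had 2 calls under TPM and 3 with the blood cell score (5 to 7 without 1 library). The cause of these changes was not tested.

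With the replicate number as a block, 0 members (Hspe1 at an unadjusted p of 0.0804 in limma), 2 import channels, 0 further chaperones, 0 stress response outputs at the adjusted threshold (2 without the block) and 4 genes at the adjusted threshold were called, and Hspa9 (0.0010), Trap1 (0.0098) and Yme1l1 (0.017) were reversed. Atf6-/- replicate 6 has no Atf6+/+ library of its number, so this fit drops it from the fold changes, which equal those without that library. The reversals are therefore those of leaving it out. Same-numbered libraries correlated between -0.210 and 0.119 in their deviations from the group means, and 1 of 5 correlated best with its own number. The labels do not say whether same-numbered libraries shared a litter or batch. Precision was limited by 5 and 6 libraries and by unknown depth.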
